A study of Mus musculus with 3 samples.

Results

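The genes of the proteasome were examined in lists of H3K27ac peaks, regions enriched for the acetylation of lysine 27 of histone H3 that marks promoters and enhancers in use. Members were taken by symbol, as mouse RefSeq protein-coding genes whose symbol begins with Psm, one of the letters a to g and a number. The pattern took 51 of 21887 protein-coding genes on the assembled chromosomes. Of these, 49 encode subunits, activators, an inhibitor or assembly chaperones of the particle, and Psmc3ip and Psme3ip1 encode proteins outside it. The samples were CD4-CD8- double-negative T cells (CD25+CD44-/+) sorted from the thymus of C57BL/6J mice of 5 to 7 weeks, with 2 H3K27ac replicates and 1 input. All samples came from wild-type mice, and the cells were used right after sorting. Since the input was not used here, the peaks have no background level beside them. Nothing in the labels says whether the replicates came from separate animals or from pools.

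The proteasome is the protease that degrades most ubiquitin-tagged proteins of the cell and makes many of the peptides that MHC class I molecules display. Its core particle is a barrel of stacked rings, with alpha subunits forming the gated ends and beta subunits carrying the catalytic sites inside. The regulatory particle caps the core. Its base holds a ring of ATPases that unfold substrates, and its lid removes ubiquitin chains. In lymphoid cells and under interferon, the catalytic beta subunits Psmb5, Psmb6 and Psmb7 can be replaced by Psmb8, Psmb9 and Psmb10, which gives the immunoproteasome. Psmb11 replaces Psmb5 in cortical epithelial cells of the thymus, where the thymoproteasome helps to shape the peptides on which thymocytes are selected. The transcription factor NFE2L1 raises the expression of subunit genes when the proteasome is inhibited.

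Promoter sequences are shown for Psmb5 with Psmb8 and for Psmb6 with Psmb9, because the peaks differed between the members of these pairs. They are also shown for Psmb11, which replaces Psmb5 as well and had no peak, and for Psma1, Psme3 and Psme1 as an alpha subunit and activators with and without peaks. Each is the 250 bases before the transcript start, 5′ to 3′ on the strand of the gene, from the RefSeq promoter table of build GRCm38.p6. Capitals mark matches, on either strand, to the 9 short patterns named with the promoter results. Psmb5 lies on the minus strand (chr14:54617996-54618245) and had no gene-end peak. Psmb8 lies on the plus strand (chr17:34197945-34198194) and had one in both replicates. Psmb11 lies on the plus strand (chr14:54625060-54625309) and had none. Psmb6 lies on the plus strand (chr11:70525107-70525356) and had none. Psmb9 lies on the minus strand (chr17:34187331-34187580) and had one in both. Psma1 (chr7:114276117-114276366, minus strand) and Psme3 (chr11:101315963-101316212, plus strand) had one in both, and Psme1 (chr14:55578244-55578493, plus strand) had none.
Psmb5: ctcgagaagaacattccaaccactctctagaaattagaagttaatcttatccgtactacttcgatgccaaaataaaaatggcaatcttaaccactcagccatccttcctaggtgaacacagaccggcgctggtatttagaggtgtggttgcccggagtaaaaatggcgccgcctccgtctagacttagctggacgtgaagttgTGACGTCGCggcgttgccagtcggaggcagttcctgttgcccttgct
Psmb8: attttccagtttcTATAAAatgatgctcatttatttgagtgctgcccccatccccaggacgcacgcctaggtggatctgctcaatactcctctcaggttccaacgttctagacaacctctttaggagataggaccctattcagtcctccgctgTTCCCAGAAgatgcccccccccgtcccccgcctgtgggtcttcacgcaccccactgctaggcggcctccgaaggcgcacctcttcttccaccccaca
Psmb11: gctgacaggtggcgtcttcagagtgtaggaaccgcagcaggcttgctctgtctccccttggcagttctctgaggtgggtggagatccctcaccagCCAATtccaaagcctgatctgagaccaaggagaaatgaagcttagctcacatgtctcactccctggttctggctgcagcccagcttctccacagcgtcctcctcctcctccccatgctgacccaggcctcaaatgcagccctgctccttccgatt
Psmb6: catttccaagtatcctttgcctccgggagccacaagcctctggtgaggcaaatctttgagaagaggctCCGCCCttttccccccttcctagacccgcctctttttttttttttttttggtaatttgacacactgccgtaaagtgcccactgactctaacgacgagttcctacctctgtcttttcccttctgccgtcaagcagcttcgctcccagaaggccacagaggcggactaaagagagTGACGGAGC
Psmb9: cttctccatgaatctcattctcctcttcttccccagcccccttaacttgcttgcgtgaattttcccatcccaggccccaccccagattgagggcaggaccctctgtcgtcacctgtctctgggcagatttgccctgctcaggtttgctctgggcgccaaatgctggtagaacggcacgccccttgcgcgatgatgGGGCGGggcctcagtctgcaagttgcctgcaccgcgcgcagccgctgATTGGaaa
Psma1: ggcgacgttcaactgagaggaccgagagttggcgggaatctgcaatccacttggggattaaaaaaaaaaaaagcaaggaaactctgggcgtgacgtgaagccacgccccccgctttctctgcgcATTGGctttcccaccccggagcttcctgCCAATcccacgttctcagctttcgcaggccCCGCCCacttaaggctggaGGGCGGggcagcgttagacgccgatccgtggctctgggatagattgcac
Psme3: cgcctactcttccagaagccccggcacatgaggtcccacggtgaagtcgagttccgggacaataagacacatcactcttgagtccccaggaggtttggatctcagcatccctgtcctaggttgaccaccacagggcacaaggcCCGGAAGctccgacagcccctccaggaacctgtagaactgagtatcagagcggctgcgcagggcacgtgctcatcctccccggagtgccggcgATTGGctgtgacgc
Psme1: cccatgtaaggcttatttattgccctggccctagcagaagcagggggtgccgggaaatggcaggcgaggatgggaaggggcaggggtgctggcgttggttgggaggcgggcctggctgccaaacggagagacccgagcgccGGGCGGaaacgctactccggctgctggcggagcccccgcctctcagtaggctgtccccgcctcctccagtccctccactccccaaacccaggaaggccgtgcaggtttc

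The replicates held 12377 and 9477 peaks, of which 4654 and 4101 lay within 1 kb of an annotated end of a protein-coding gene. Such a peak is called a gene-end peak here, and a gene with one in each replicate is called acetylated. The depth of the libraries is unknown, so an absent peak does not show that the mark was absent. A mark in fewer cells and a weaker mark per cell cannot be told apart in sorted populations. Chromosomes 6, 9, 14 and 17 stood apart in the authors' statistics. Of the gene-end peaks with a fold under 2 and a −log10 p of at least 5, 92.3% in replicate 1 and 92.6% in replicate 2 lay on those chromosomes. They hold 10 members, of which 3 were acetylated: Psmb8, Psmb9 and Psmd6. None of the peaks at these 3 genes had that form. Among all member peaks it was found at Psmc6 in replicate 1 and at Psma7, on chromosome 2, in replicate 2.

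Proteasome genes carried gene-end acetylation in part of the family. A gene-end peak was present in both replicates at 18 of 51 members (35.3%), against 16.8% of all protein-coding genes. A q of at most 0.05 in both replicates was met by 1 member (1.96%) and 2.64% of all genes, and 1 member is too few to read a direction from. In single replicates that threshold was met at 11.8% of members against 6.78% of all genes in replicate 1. In replicate 2 the shares were 21.6% and 9.69%. Without a q threshold, a gene-end peak was present in replicate 1 at 29 members (56.9%, against 25.1% of all genes). In replicate 2 one was present at 20 (39.2%, against 22.2%). Either replicate had one at 31 members (60.8%, against 30.5%), and 20 members had none. The gene-end peaks of the replicates overlapped each other at all 18 acetylated members. Of the 3674 acetylated protein-coding genes the same held for 3540, or 16.2% of all protein-coding genes. Proteasome promoters are often rich in CpG, and among protein-coding genes with a CpG-rich promoter, defined further on, 29.8% were acetylated. Of the 31 members with such a promoter 12 were (38.7%). The members were chosen with results of these data known, so these shares are descriptions and no test was made.

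**Figure D1:**
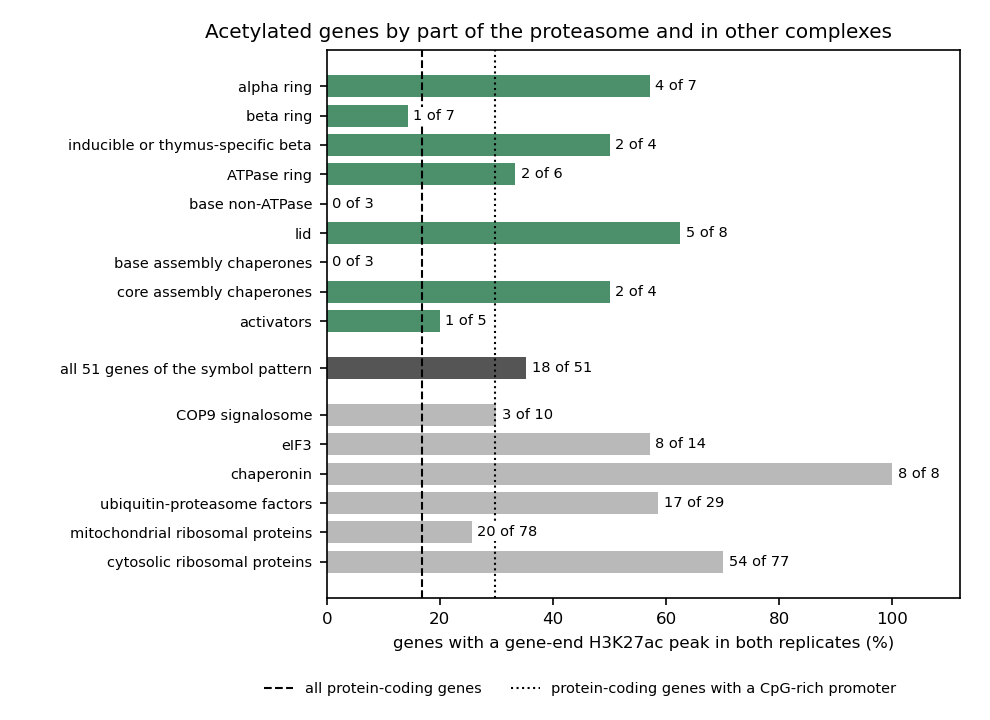
Share of genes with a gene-end H3K27ac peak in both replicates (x axis, %), by part of the proteasome (green), for all 51 members (dark grey) and in other complexes (light grey), with counts beside the bars. The dashed line marks all protein-coding genes (16.8%) and the dotted line those with a CpG-rich promoter (29.8%); the lid and alpha ring stand at 5 of 8 and 4 of 7, the constitutive beta ring at 1 of 7. The germ line alpha variant, the inhibitor and the genes outside the particle are not drawn.

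The parts of the particle differed in their counts. Acetylated genes made up 4 of 7 in the alpha ring, 5 of 8 in the lid, 2 of 6 among the ATPases, 2 of 4 among the inducible or thymus-specific beta subunits and 2 of 4 among the core assembly chaperones. They made up 1 of 7 in the constitutive beta ring, 1 of 5 among the activators, and 0 of 3 each among the other base subunits and the base assembly chaperones. The counts of 1 of 7 and 1 of 5 lie near the 16.8% of all protein-coding genes, so neither part stands out as low against them. In the beta ring, replicate 2 had a gene-end peak at 1 of 7 genes, against 22.2% of all protein-coding genes. Replicate 1 had one at 4 of 7, against 25.1%. The lists are short, and none of the differences was tested.

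Among other large complexes the proteasome, at 35.3%, was neither at the top nor at the bottom. The share was 16.8% over all protein-coding genes and 29.8% over those with a CpG-rich promoter. The chaperonin, which folds actin and tubulin, was acetylated at 8 of 8 genes, cytosolic ribosomal proteins at 54 of 77 (70.1%) and the translation factor eIF3 at 8 of 14 (57.1%). Mitochondrial ribosomal proteins were acetylated at 20 of 78 (25.6%) and the COP9 signalosome, whose architecture resembles that of the lid, at 3 of 10 (30.0%). Both lie near the CpG-rich share, and 64 of 69 and 8 of 9 of their genes with a promoter in the promoter table were CpG-rich. The lists with higher shares were rich in CpG as well. CpG-rich promoters made up 7 of 7 for the chaperonin, 50 of 57 for cytosolic ribosomal proteins and 10 of 10 for eIF3. No test compared these lists with the proteasome.

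The alpha ring, which forms the outer gates of the core, had the marked genes Psma1, Psma2, Psma5 and Psma7. At Psma1 (chromosome 7, 114264550 to 114276116) the peak had a fold of 2.48 in replicate 1 and 3.03 in replicate 2, with widths of 907 bp and 757 bp. Psma2 (chromosome 13, 14613242 to 14625673) had folds of 2.30 and 2.66 over 928 bp and 1144 bp. Both genes had a peak across the start in each replicate, wider than the median gene-end peak there, and Psma2 had the most bases covered by both, 928 bp, of all members. The Psma2 peak also reached the start of Mrpl32, a mitochondrial ribosomal protein gene that is transcribed away from it, 205 bp upstream. At Psma5 (chromosome 3, 108256926 to 108279952) the peaks lay downstream of the start, with folds of 2.30 and 2.41 and widths of 1400 bp and 373 bp.

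Psma7 (chromosome 2, 180036367 to 180042464) had the lowest folds of all members, 1.12 in replicate 1 and 1.59 in replicate 2. The replicate 2 peak nevertheless had a −log10 q of 10.8, against 0.71 in replicate 1. Low fold with small p is the form described for chromosomes 6, 9, 14 and 17, and 12 of 314 gene-end peaks of chromosome 2 had it in replicate 2. Psma7 shares its peak with the oppositely transcribed Ss18l1, whose start lies 19 bp upstream.

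The other alpha genes missed the call in different ways. At Psma3 only replicate 1 reached a gene end, with a peak of 1788 bp and a fold of 1.86, while the nearest peak of replicate 2 lay 5340 bp from a gene end. That distance follows from the annotation, since the annotated gene begins upstream of the start in the promoter table. Within 1 kb of that start both replicates had a peak, with folds of 1.95 and 1.87, so Psma3 is acetylated if transcript starts are counted. Psma6 had peaks only within the gene, with folds of 1.93 in replicate 1 and 3.6 in replicate 2. The replicate 1 peak covered its downstream transcript start, and the nearest peaks to a gene end were 14471 bp and 4084 bp away. Psma4 had no peak within 25 kb. Psma8, the alpha subunit of the male germ line, had no gene-end peak either, and its nearest were 22937 bp and 22905 bp away.

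Within the constitutive beta ring, Psmb4 alone was acetylated. Psmb4, a noncatalytic subunit (chromosome 3, 94884324 to 94886958), had folds of 2.05 and 1.99 and widths of 1617 bp and 615 bp, and its start was covered in both replicates. Of the 3 catalytic genes, Psmb5, which gives the chymotrypsin-like site, and Psmb6, which gives the caspase-like site, had no peak within 25 kb in either replicate. The nearest peaks were 30361 bp and 59726 bp from Psmb5 and 35283 bp and 118823 bp from Psmb6. Psmb7, which gives the trypsin-like site, had a peak of fold 3.08 and 400 bp in replicate 1, higher than 91.2% of gene-end peaks there, and the nearest peak of replicate 2 was 179751 bp away. Psmb1 and Psmb2 also had a peak in replicate 1 alone, with folds of 1.74 and 2.74. Psmb3 had none, with a peak of replicate 1 at 4513 bp.

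The replacements showed another pattern. Psmb8 and Psmb9, which take the places of Psmb5 and Psmb6 in the immunoproteasome, were both acetylated. At Psmb8 (chromosome 17, 34198195 to 34201454) the fold was 2.17 in replicate 1 and 2.25 in replicate 2. The widths were far apart, 3292 bp, wider than 98.8% of gene-end peaks, and 704 bp. At Psmb9 (chromosome 17, 34182030 to 34187330) the fold was 1.75 in replicate 1 and 2.96 in replicate 2, over 853 bp and 1504 bp. Psmb9 thus ranked low among the gene-end peaks of replicate 1 (14.5% lay below it) and high in replicate 2 (81.8%). Psmb10, the replacement of Psmb7, had a peak of 1627 bp with a fold of 1.77 in replicate 1, centred 1271 bp inside the gene, and the nearest peak of replicate 2 was 3975 bp from a gene end. So Psmb8 and Psmb9 had peaks in both replicates where their constitutive counterparts Psmb5 and Psmb6 had them in neither, while Psmb7 and Psmb10 each had one in replicate 1 alone. Of the peaks at Psmb8 and Psmb9, only that of Psmb9 in replicate 2 had a q of at most 0.05. The −log10 q was 0.84 and 0.82 at Psmb8, and 0.48 and 2.09 at Psmb9.

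Psmb8 and Psmb9 lie in the MHC class II region beside Tap1 and Tap2, the genes of the peptide transporter that feeds class I molecules. Tap1 starts 226 bp upstream of Psmb9 in the opposite direction, and the Psmb9 peak of each replicate lay within 1 kb of an end of Tap1. The 3292 bp peak of Psmb8 in replicate 1 reached Tap1 as well, and the 704 bp peak of replicate 2 did not. Acetylation there cannot be assigned to one gene of a pair. Both genes are on chromosome 17, so that without chromosomes 6, 9, 14 and 17 no acetylated replacement subunit was left. Psmb9 also lost the call when only the 10000 peaks of smallest p were kept, a filter that trims replicate 1 alone, since replicate 2 holds 9477.

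Psmb11, the thymoproteasome subunit of cortical epithelium, had no gene-end peak (chromosome 14, 54625310 to 54629556). The nearest lay 18800 bp away in replicate 1 and 56466 bp in replicate 2. Of 7 markers of thymic epithelium 1, Ccl25, was acetylated in these sorted cells, near the 16.8% of all protein-coding genes, and neither replicate had a gene-end peak at Foxn1, Krt5, Krt8, Epcam, Cldn4 or Aire.

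The ATPase ring, which unfolds substrates, had Psmc2 and Psmc4 as its acetylated genes. Psmc2 (chromosome 5, 21785275 to 21803787) had folds of 1.88 and 2.08 and widths of 315 bp and 437 bp. Its peaks ended short of the start, on the side of the neighbour Dnajc2, an end of which lay within 1 kb of them in both replicates. At Psmc4 (chromosome 7, 28041702 to 28050092) the folds were 2.07 and 2.49 and the widths 542 bp and 634 bp, with the start covered in replicate 2 alone. Psmc3 had a peak in replicate 2 alone (fold 2.25), and Psmc5 and Psmc6 in replicate 1 alone (1.59 and 1.73). The Psmc6 peak, on chromosome 14, had the form of low fold with small p, and its −log10 q of 24.4 was the highest of all member peaks. The Psmc5 peak, which reaches the start of the divergent Ftsj3, was 278 bp wide, the least width in replicate 1, which many gene-end peaks share. The nearest replicate 2 peaks were 9154 bp from Psmc5 and 10929 bp from Psmc6. Psmc1 had no peak within 25 kb.

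The lid, which carries the deubiquitinating subunit, had Psmd3, Psmd6, Psmd7, Psmd11 and Psmd12 acetylated. Psmd3 (chromosome 11, 98682554 to 98695978), a scaffold subunit, had folds of 2.20 and 3.10 over 466 bp and 481 bp. Psmd11 (chromosome 11, 80428615 to 80473248), also a scaffold subunit, had folds of 3.62 and 2.43 over 401 bp and 365 bp. The fold of Psmd11 was among the higher ones in replicate 1, above 95.1% of gene-end peaks, and near the middle in replicate 2 (59.4%). Psmd12 (chromosome 11, 107479528 to 107498036) had folds of 1.85 and 1.88 over 331 bp and 486 bp. Psmd7 (chromosome 8, 107580380 to 107588482), the partner of Psmd14 in the deubiquitinating pair, had folds of 2.19 and 1.64 over 363 bp and 572 bp. At Psmd6 (chromosome 14, 14112185 to 14120945) the folds were 1.84 and 2.14 over 529 bp and 229 bp, the latter the least width in replicate 2, which other peaks share. All of these lid peaks were narrower than the median gene-end peak of their replicate, 760 bp and 681 bp.

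Of the remaining lid genes, Psmd8 had a peak of 979 bp in replicate 1 alone, with a fold of 3.31, that also lay within 1 kb of Catsperg1. Psmd14, which encodes the deubiquitinase itself, had no peak within 25 kb, nor had Psmd13, whose nearest were 25270 bp and 25076 bp away. In the base, Psmd2, a large scaffold that docks ubiquitin-like proteins, had a peak of fold 2.67 in replicate 1 alone. The large scaffold Psmd1 had none within 25 kb. Psmd4, a ubiquitin receptor, had its nearest peaks at 15901 bp and 16197 bp.

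Among the activators, Psme3 was acetylated and the interferon-inducible pair Psme1 and Psme2 was not. Psme3 (chromosome 11, 101316213 to 101323537), which forms the nuclear activator PA28 gamma, had folds of 2.30 and 2.92 over 525 bp and 315 bp, with the start covered in each replicate. Psme4 (chromosome 11, 30771775 to 30881150), the large nuclear activator PA200, had the tallest gene-end peak of all members, with a fold of 4.40 and a −log10 q of 3.87 in replicate 1. That peak was 301 bp wide and stood above 97.6% of gene-end peaks, yet the nearest peak of replicate 2 was 269064 bp away. Psme1 (chromosome 14, 55578494 to 55581527) had its nearest peaks at 17906 bp and 17786 bp. For Psme2 (chromosome 14, 55587440 to 55591101) they lay at 26852 bp and 26732 bp, and for Psme2b (chromosome 11, 48945345 to 48946410) at 72689 bp and 73530 bp. Psme2b is a copy of Psme2, and how reads shared by near-identical copies were placed is not given, so both are uncertain. Psmf1, which encodes the inhibitor PI31, had no gene-end peak, but replicate 1 had a peak of fold 2.06 within 1 kb of its transcript start.

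Assembly chaperones help the rings to form and then leave. Psmg2 (chromosome 18, 67641587 to 67654181), which guides alpha ring assembly with Psmg1, had folds of 2.98 and 3.23 over 677 bp and 482 bp. Its −log10 q of 2.20 and 2.75 made it the single member whose peaks had q of at most 0.05 in both replicates, and an end of Cep76 lay within 1 kb of them. Psmg4 (chromosome 13, 34162964 to 34178172) had folds of 1.80 and 3.15 over 430 bp and 654 bp, so its rank rose from above 17.6% of gene-end peaks in replicate 1 to above 85.9% in replicate 2. Psmg1, near Brwd1, had a peak in replicate 1 alone (fold 2.66). Psmg3 had none, with a replicate 1 peak at 1531 bp. Of the base chaperones, Psmd5 had a peak of fold 2.60 in replicate 2 alone, Psmd9 had its nearest peaks at 18265 bp and 2550 bp, and Psmd10 on the X chromosome had none within 25 kb.

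Outside the particle, Psme3ip1, which encodes an interaction partner of PA28 gamma, was acetylated, with folds of 2.09 and 1.94 over 1529 bp and 229 bp. Its replicate 2 peak lay upstream of the start, 552 bp from the gene end, and an end of Rspry1 lay within 1 kb. Psmc3ip, a cofactor of meiotic recombination, had no gene-end peak and its nearest were 4275 bp and 23843 bp away. Without these genes the count was 17 of 49.

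**Figure D2:**
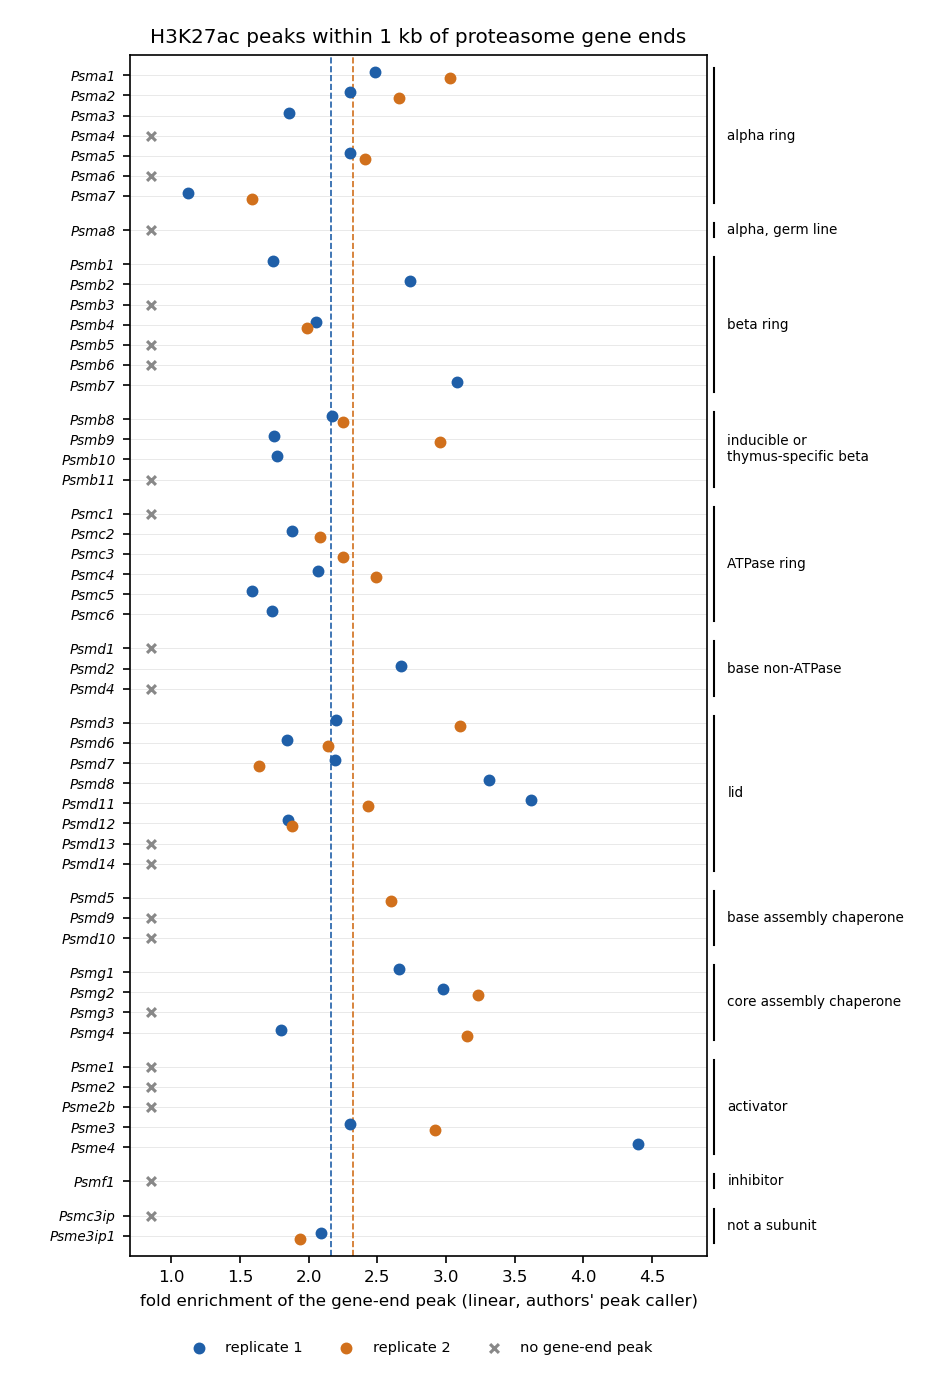
Fold enrichment of gene-end peaks (x axis, linear, as given by the authors' peak caller) for the 51 members (y axis), grouped by part, with replicate 1 in blue and replicate 2 in orange. Grey crosses, set left of the scale, mark the 20 members with no gene-end peak, and dashed lines the median of all gene-end peaks (2.16 and 2.32); Psme4 is highest at 4.40 in replicate 1 and Psma7 lowest at 1.12.

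Where member genes had peaks, these had folds like those of other gene-end peaks and were narrower. The 29 member peaks of replicate 1 had a median fold of 2.17 (1.12 to 4.40) against 2.16 for all gene-end peaks. The 20 of replicate 2 had 2.42 (1.59 to 3.23) against 2.32. The median width of member peaks was 576 bp in replicate 1, where that of gene-end peaks was 760 bp. In replicate 2 the medians were 524 bp and 681 bp. The authors' q was at most 0.05 for 6 of the 29 member peaks (20.7%, against 1257 of all 4654) and for 11 of the 20 (55.0%, against 42.9% of all). The peaks of Psmc6 in replicate 1 and Psma7 in replicate 2, with low fold and small p, are among them. By gene, q of at most 0.05 was met in replicate 1 at 11.8% of members and 6.78% of all genes, in replicate 2 at 21.6% and 9.69%, and in both replicates at Psmg2 alone of the members.

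**Figure D3:**
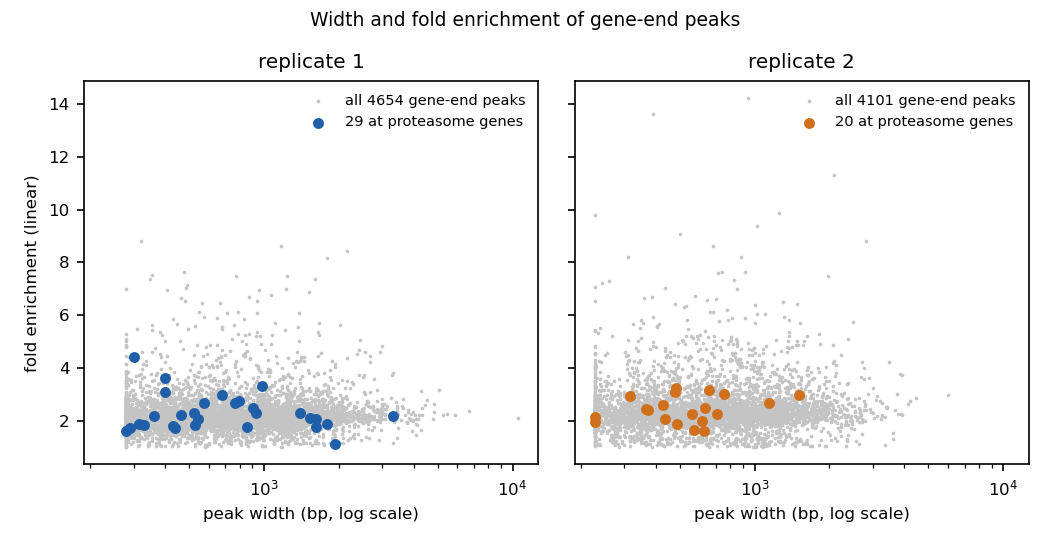
Width (x axis, bp, log scale) and fold enrichment (y axis, linear) of all gene-end peaks (grey) and of those at proteasome genes (coloured) in each replicate. The 29 and 20 proteasome peaks lie within the cloud of gene-end peaks, with folds of 1.12 to 4.40 and 1.59 to 3.23, and mostly at widths under 1000 bp.

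Fold and width of the same gene agreed only in part between replicates. Across the 18 acetylated members, Pearson's r was 0.375 and Spearman's rho 0.392 for fold, and 0.123 and 0.291 for width. The points are genes of a single pair of libraries, and share them. The fold was higher in replicate 2 at 14 of the 18, while the median of all gene-end peaks was higher there too. The bases covered by both replicates within 1 kb of gene ends ranged from 215 bp at Psme3ip1 over a median of 396.5 bp to 928 bp at Psma2.

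Peaks lay mostly over or just downstream of transcript starts. The promoter table gave starts for 15 of the 18 acetylated members. The start was covered by the peak in both replicates at 7 of them (Psma1, Psma2, Psma7, Psmb4, Psmb9, Psmg4 and Psme3), in 1 replicate at 5 (Psmb8, Psmc4, Psmd11, Psmd12 and Psme3ip1), and in neither at 3 (Psma5, Psmc2 and Psmd6). The centre of the peak was downstream of the start in 22 of the 30 peaks. With transcript starts in place of gene ends, 16 of 43 members had a peak within 1 kb in both replicates (37.2%), against 18.2% of all genes in the table. At 7 of the 18 acetylated members an end of another protein-coding gene lay within 1 kb of the peak: Mrpl32 at Psma2, Ss18l1 at Psma7, Tap1 at Psmb8 and Psmb9, Dnajc2 at Psmc2, Cep76 at Psmg2 and Rspry1 at Psme3ip1.

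**Figure D4:**
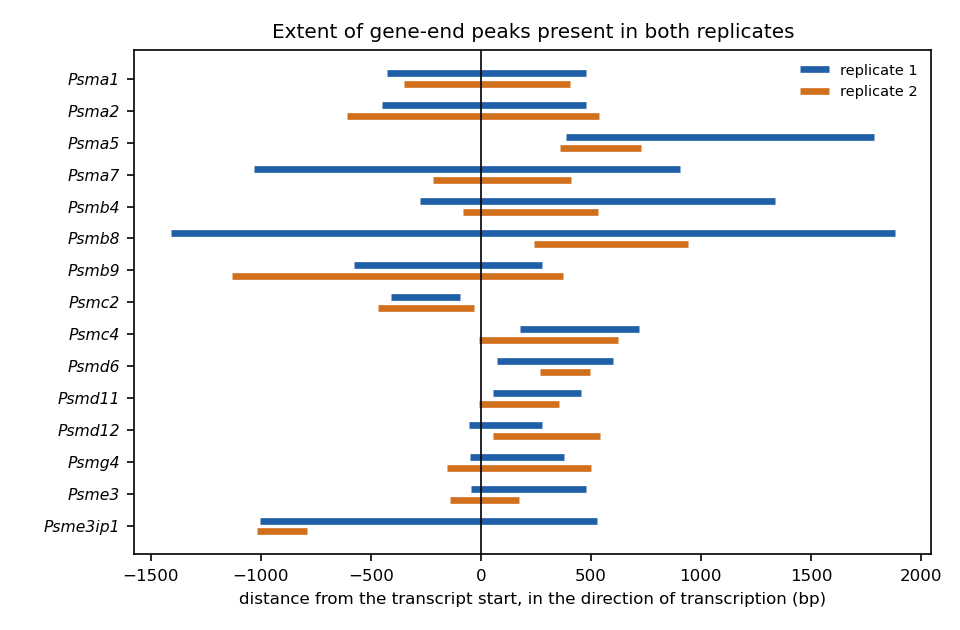
Extent of the gene-end peaks of each replicate (bars; blue for replicate 1, orange for replicate 2) around the transcript start (vertical line), for the 15 acetylated members with a start in the promoter table. Distances on the x axis are in bp along the direction of transcription; both bars cross the line at 7 genes and neither at Psma5, Psmc2 and Psmd6.

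Members had CpG-rich promoters in a larger share than protein-coding genes at large. The promoter table held promoters of 43 members; Psma8, Psmb1, Psmb2, Psmb7, Psmc3, Psmd3, Psmd7 and Psmg2 were not matched. A promoter was called CpG-rich at a ratio of observed to expected CpG of at least 0.6 over 300 bases, using the highest value where a gene had several. This held for 31 of the 43 (72.1%) and for 50.9% of all protein-coding genes in the table. The share was 12 of 15 among acetylated members, 7 of 9 among those with a peak in 1 replicate, and 12 of 19 among those with none. None of the inducible and thymus-specific subunits is among them: the ratio was 0.523 at Psmb8, 0.6 (below the limit before rounding) at Psmb9, 0.192 at Psmb10 and 0.165 at Psmb11. Among their constitutive counterparts with a promoter, it was 0.999 at Psmb5 and 0.727 at Psmb6. Psmb8 and Psmb9 had peaks and lower CpG ratios than Psmb5 and Psmb6, which had none, while Psmb11, with the lowest ratio of them, had none either.

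Short patterns in these promoters were counted on both strands, over the 300 bases from 250 before to 50 after the start. The ETS pattern CCGGAAG was present in 16 of 43 members (37.2%) and in 12.9% of all promoters, or 21.1% of CpG-rich ones. It was found in 6 of 15 acetylated members, 4 of 9 with a peak in 1 replicate and 6 of 19 with none. The capitals in the sequence of Psme3 at -107 are such a match. The NFE2L1 and NFE2L2 pattern TGACNNNGC was present in 6 of 43 members, namely Psmb5, Psmb6, Psmc6, Psmd9, Psmd12 and Psme4, and in 14.8% of all promoters. Of these 6 members 1, Psmd12, was acetylated, against 15 of the 43 members with a promoter and 16.8% of all protein-coding genes. A list of 6 is too short to read a direction from. Psmc6 and Psme4 had a peak in replicate 1 alone. The matches at -47 in Psmb5 and -9 in Psmb6 stand in capitals near the right end of the sequences shown. All positions are those of the first base of the match, counted from the transcript start.

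The SP pattern GGGCGG was present in 24 of 43 members (55.8%, against 49.2% of all promoters and 76.5% of CpG-rich ones). The NF-Y pattern CCAAT was found in 16 (37.2%, against 42.3% of all and 42.2% of CpG-rich ones). For the NRF1 pattern GCGCANGCG the count was 7 (16.3%, against 9.63% of all and 17.8% of CpG-rich ones). The IRF pattern GAAANNGAA was present in 7 (16.3%, against 9.43%), among them Psme1 but no immunoproteasome subunit. The STAT pattern TTCNNNGAA was found in Psmb8, Psmd2 and Psmg1 (6.98%, against 8.92%), and in Psmb8 it lies at -97. The YY1 pattern AAGATGGC was present in 3 (6.98%, against 3.57%) and the TATA pattern TATAAA in 4 (9.30%, against 14.8%). In CpG-rich promoters the shares of the IRF, STAT, YY1 and TATA patterns were 7.58%, 7.43%, 5.6% and 7.94%. The TATA matches lay at -237 in Psmb8, -182 in Psmd6, -122 in Psmd1, and -78 and -76 in Psmb4. Matches of different patterns overlapped each other in 2 pairs among 133 matches in members. A match is a string of letters and not a bound site, and none of these shares was tested.

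Genes that supply, regulate or feed the proteasome were marked at 17 of 29 (58.6%). They include Adrm1 and Sem1, subunits of the regulatory particle that the symbol pattern does not take, and Pomp, which matures the core. Nfe2l2, which encodes a relative of NFE2L1, and Ddi2 and Ngly1, which encode enzymes that activate NFE2L1, were acetylated as well. At Nfe2l1 itself the sole gene-end peak was that of replicate 2. The other acetylated genes included Uchl5 (a deubiquitinase of the regulatory particle), Txnl1, the segregase gene Vcp, the shuttle factor genes Rad23b, Ubqln1 and Ubqln2, the ubiquitin gene Ubb, the ubiquitin-activating enzyme gene Uba6 and Zfand5. Replicate 2 had a peak at 24 of the 29 (against 22.2% of all genes) and replicate 1 at 18 (against 25.1%), the reverse of the order for the members. Of 10 genes of class I presentation 6 were acetylated (among them Tap1, B2m, Erap1, Irf1 and Pdia3), also against 16.8% of all genes. Tap2 and Tapbp had a peak in replicate 1 alone, and Nlrc5 and Calr had none.

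The sorted cells were checked against markers. Of 11 markers of double-negative T cells, 5 were acetylated (Cd3d, Cd3e, Cd3g, Tcf7 and Dntt), against 16.8% of all protein-coding genes. Another 3 (Ptcra, Il2ra and Thy1) had a peak in 1 replicate, while Rag1, Rag2 and Notch1 had none. None of 4 later thymocyte or 5 B cell markers had a gene-end peak in either replicate. Such a peak was present at 30.5% of all protein-coding genes, and lists that short can hold none at this share, so neither list tells cell types apart. Of 7 myeloid and dendritic markers, Xcr1 was acetylated and Cd68 had a peak in 1 replicate. Such a count of 1 in 7 is near the 16.8% of all protein-coding genes.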

How the data were processed

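H3K27ac was profiled by chromatin immunoprecipitation and sequencing in 2 replicates. Per the labels' protocols, fixed chromatin was captured with an H3 antibody, given adapters and precipitated again for H3K27ac. Bowtie2, MACS 1.4.2 and mm10 are named in the submitters' processing notes. The peak names hold "rmdup" and 1 library index per list, which points to duplicate removal and to peaks called per sample. The 9-column layout is that of MACS2, so the version is uncertain. Neither cutoff nor control is given in the sources used. The authors deposited for each peak a fold ratio, a −log10 p-value, a −log10 q-value and a score, the last being 10 times −log10 q. All of these are the authors' values and serve to describe, rank or filter peaks within a list. No counts are in the lists, so no interval can be given.

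Genes came from RefSeq (GRCm38.p6, the build of mm10), with coordinates counted from 1. A peak counted for a gene if any base lay within 1 kb of either annotated end. Members and lists were chosen with earlier results of these data known; Paaf1 of the lists was not matched. Full values are given for acetylated members, inducible or thymus-specific subunits and activators, and the nearest peak for others where within 25 kb; some distances beyond that were added after seeing them. The planned rule was kept otherwise. Alternatives covered thresholds, windows, overlap, replicates, transcript starts and chromosomes. The matching of peaks to genes was checked on simulated intervals planted at the edge of the window at 200 genes. Of those planted within the window 100 of 100 were recovered, which checks the matching code and not the authors' peak calling. Python 3.11.15, pandas 2.3.3, NumPy 2.4.6, SciPy 1.17.1 and matplotlib 3.10.9 were used.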

Additional observations from a re-analysis of the deposited data

How the results depend on the processing

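The count of 18 acetylated proteasome genes kept within 1.5 times of itself, at 13 to 19, with windows of 0.5 or 2.5 kb, a required overlap of peaks, transcript starts, the 10000 peaks of smallest p (which trims replicate 1 alone, as replicate 2 holds 9477), or without chromosomes 6, 9, 14 and 17. Over these settings the share of all protein-coding genes was 14.4% to 18.9%. Transcript starts were in the promoter table for 43 of the 51 members, and 41 members lie outside those chromosomes. The count of members depended on the replicates and the q threshold. With a peak in either replicate it was 31, and leaving out 1 replicate gave 20 to 29. The share of all protein-coding genes was then 30.5%, or 22.2% to 25.1%, and it was 29.8% among genes with a CpG-rich promoter, a background chosen after seeing the data. With q of at most 0.05, members fell to 1 (Psmg2, a core assembly chaperone, so that part had 1) and all genes to 2.64%. The alpha ring, beta ring, inducible subunits, ATPases, lid, activators, genes outside the particle and COP9 signalosome had 0. The chaperonin then had 3, class I presentation 1, cytosolic ribosomal proteins 9, eIF3 1, mitochondrial ribosomal proteins 4 and the ubiquitin-proteasome factors 1. With q of at most 1e-05, members and each of their parts had 0, as had COP9, eIF3, mitochondrial ribosomal proteins and ubiquitin-proteasome factors, against 0.731% of all genes. The chaperonin kept 1, class I presentation 1 and cytosolic ribosomal proteins 2.

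With a peak in either replicate, the beta ring had 4, the ATPases 5, the other base subunits 1, the base chaperones 1, the activators 2, COP9 5 and mitochondrial ribosomal proteins 41. Leaving out 1 replicate gave 1 to 4 for the beta ring, 3 to 4 for the ATPases, 0 to 1 each for the other base subunits and base chaperones, 1 to 2 for the activators and 30 to 31 for mitochondrial ribosomal proteins. With replicate 1 trimmed to the 10000 peaks of smallest p, the inducible subunits had 1, the ATPases 1, the lid 3 and the core chaperones 1. With transcript starts alone the lid had 3 and the core chaperones 1, since fewer of their genes are in the promoter table. Without the 4 chromosomes the inducible subunits had 0, with a window of 0.5 kb the genes outside the particle had 0, and with gene ends or transcript starts, also added after seeing the data, COP9 had 5. Where no construction is named, the cause was not tested. No paired analysis was possible because a single group has replicate numbers and no groups were compared. Depth is unknown, so it cannot be said how many members without a peak lack the mark.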
